A study of Homo sapiens with 6 samples.

Results

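The peaks described here are those called in the CRLM1 pull-down against input chromatin, on chromosomes 1 to 22 and X, in HCT116 cells, a line grown from a human colorectal carcinoma. Both such lists were taken whole. They held 9317 peaks in replicate 1 and 16765 in replicate 2, together 26082 of the 36932 peaks in the 4 deposited lists. The 6 libraries fell into 3 groups of 2 biological replicates: CRLM1_IP, pulled down with CRLM1 antisense oligos, LacZ, pulled down with LacZ antisense oligos as a negative control, and Input, genomic DNA labelled as control. All 3 groups were crosslinked chromatin of the same line, and a peak of CRLM1_IP replicate 1 or 2 had been called against the Input of the same number. The lists against LacZ, with 10308 and 363 peaks on the same chromosomes, are given only as context.

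Long noncoding RNAs (lncRNAs) are transcripts without a long reading frame, and some stay on chromatin, where they can hold or recruit proteins. Chromatin isolation by RNA purification (ChIRP) reads this contact: biotinylated DNA probes complementary to the RNA are hybridised to crosslinked, sheared chromatin, and the DNA that comes along is sequenced. CRLM1 is the lncRNA annotated as LINC01767. The question was where its pull-down was above input in both replicates, which genes and gene classes those places belonged to, and what their sequence and surroundings shared. No read counts were analysed, so the depth behind a peak is unknown. Each peak carried only a score, whose scale is not stated. The lowest score in either list was 50, the medians were 56.1 and 57.7, and the median peak widths were 389 and 402 bp.

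The probes lay end to end along LINC01767 (GRCh38, chr1:56414918-56417137, plus strand). The 9 probes, of 59 bases each, were complementary to the transcript, so they read as the minus strand of the genome. Probes CRLM1-4, CRLM1-5 and CRLM1-7 matched the genome in 2 blocks, and the other 6 in 1. Probes CRLM1-1, CRLM1-5 and CRLM1-9 are shown because they mark the start, a junction and the end of the stretch that was targeted, chr1:56414963-56415021, chr1:56415296-56415342 with chr1:56415533-56415544, and chr1:56415894-56415952. Capitals mark the 47 bases of CRLM1-5 that matched the first of its blocks.
CRLM1-1: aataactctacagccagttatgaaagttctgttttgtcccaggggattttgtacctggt
CRLM1-5: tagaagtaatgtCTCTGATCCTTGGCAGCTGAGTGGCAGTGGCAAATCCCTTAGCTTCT
CRLM1-9: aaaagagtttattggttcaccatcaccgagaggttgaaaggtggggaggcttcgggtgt

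Exact matches of 15 bases to any probe, on either strand, were searched for under the peaks. They were found in 10 peaks of replicate 1 and in 10 of replicate 2, or 0.107% and 0.0596% of the lists. The rate of such matches in other sequence was not measured, so these shares have no background. Only 1 region with a peak in both replicates held such a match, and it was LINC01767 itself. It spanned chr1:56414742-56416221, covered the whole probed stretch and carried scores of 1008.27 and 1580.45. The matched peaks elsewhere scored at most 97.6 in replicate 1 and 76.6 in replicate 2.

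Peaks of the replicates met at 146 regions, counting any overlap of at least 1 bp. These took in 154 peaks of replicate 1, 1.65% of that list, and 150 peaks of replicate 2, 0.895%. With a reciprocal overlap of 50%, 103 regions were shared. The lists covered 3845 and 6924 kb of 2911 Mb of known bases. How many shared regions this coverage alone would give was not tested, which limits the reading of single regions near the score floor. What set many of these regions apart was their sequence. Words CATTC and GAATG, the same word on opposite strands and the unit of human satellites 2 and 3 (tandem repeats beside several centromeres), stood at 20 or more per kb in 50 of the 146 regions. Across the known bases of these chromosomes they stood at 2.58 per kb. The threshold was chosen after the values were seen, and it fell in a gap: the 50 regions ranged from 34.3 to 125 words per kb, and the other 96 from 0 to 13.4. The central 120 bases of 3 such regions are shown, the best scored one of each of 3 chromosomes, with both words in capitals, as they run on the plus strand of GRCh38 at chr4:49110051-49110170, chr5:49666697-49666816 and chr10:41896605-41896724. Each stretch held 12 words.
Repeat on chromosome 4: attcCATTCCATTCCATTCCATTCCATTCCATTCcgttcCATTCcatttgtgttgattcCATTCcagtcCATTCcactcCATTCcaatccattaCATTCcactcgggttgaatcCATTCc
Repeat on chromosome 5: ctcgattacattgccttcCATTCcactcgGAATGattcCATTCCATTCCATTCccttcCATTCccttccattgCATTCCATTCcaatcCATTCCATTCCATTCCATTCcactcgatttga
Repeat on chromosome 10: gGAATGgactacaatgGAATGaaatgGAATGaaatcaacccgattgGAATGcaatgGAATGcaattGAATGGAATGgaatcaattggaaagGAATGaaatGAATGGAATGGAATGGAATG

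The remaining 96 shared regions were not searched for other words. A pair that differ in base composition are shown for contrast. The first is from an intron of TPRG1, chr3:189246728-189246847, with 35.0% GC. The second is from the intergenic region nearest TH, chr11:2205774-2205923, a run of imperfect cct-rich repeats with 66.7% GC.
TPRG1 intron: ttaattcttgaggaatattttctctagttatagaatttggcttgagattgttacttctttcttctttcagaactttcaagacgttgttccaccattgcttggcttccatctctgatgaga
near TH: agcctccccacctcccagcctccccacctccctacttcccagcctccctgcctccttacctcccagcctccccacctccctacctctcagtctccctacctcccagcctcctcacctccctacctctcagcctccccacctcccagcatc

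The CATTC-repeat regions were few places, densely filled. Chromosome 4 held 22 of the 50, all within 567 kb from position 49091065 to 49658096, and chromosome 10 held 11. Chromosome 2 held 5, within 13.5 kb from position 89827794 to 89841254, chromosomes 5 and 17 held 3 each, and chromosomes 16, 20 and 22 held 2 each. All 50 were intergenic, outside every gene body and every 5 kb upstream window. On chromosome 4 the replicate 1 scores ranged from 78.9 to 1505.61 and the replicate 2 scores from 54.9 to 380.65. On chromosome 5 they ranged from 165 to 795.49 and from 142 to 434.6.

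In replicate 1 these regions were among the best scored peaks of the list. Of the 50, 44 were in the top 5% of replicate 1 by score and 28 in the top 5% of replicate 2, with 27 in both. The median score was 210 in replicate 1 and 88.6 in replicate 2, and the value was the higher one in replicate 1 at 45 of 50 regions. Of the other 96 shared regions, it was the higher one in replicate 1 at 45. Whether the scores of both lists are on the same scale is unknown. Of the 100 best scored peaks, 76 in replicate 1 and 16 in replicate 2 were of this kind.

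Counted by peak, satellite words marked the shared peaks and were scarce elsewhere. In replicate 1, 57 of 154 shared peaks passed 20 words per kb, or 37.0% (95% Wilson interval 29.8 to 44.9), against 113 of the 9163 others, or 1.23% (1.03 to 1.48). In replicate 2 the values were 52 of 150, or 34.7% (27.5 to 42.6), against 27 of 16615, or 0.163% (0.112 to 0.236). These intervals cover counting error only, and neighbouring peaks of 1 repeat array are not independent. Read the other way, 33.5% of the 170 satellite peaks of replicate 1 and 65.8% of the 79 of replicate 2 met a peak of the other list, whereas 1.06% and 0.587% of the remaining peaks did. Satellite peaks were wider, with medians of 716 and 823 bp, against 389 and 401 bp in peaks that were not shared. Wide peaks packed into few places meet more easily, and the shares are not corrected for this.

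The lists against LacZ hold CRLM1_IP peaks called over the LacZ pull-down, and do not show the signal of LacZ itself. No CATTC-repeat region shared by the replicates overlapped a peak of either LacZ list. The lists against LacZ held 5 such peaks among 10308 in replicate 1 and 0 among 363 in replicate 2. Of the other 96 shared regions, 45 were also called against LacZ in replicate 1 and 4 in replicate 2. The share of all peaks against input that overlapped these lists is not given here, so none of these counts has a background. The lists against LacZ also differ greatly in size. The sources used here do not say whether reads with several alignments were kept.

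The share of repeated sequence followed. It was measured as the percentage of bases inside words of 14 bases that occur at least 200 times in the genome, 49.5% of known bases. Its median was 74.9% in the shared peaks of replicate 1 and 46.4% in the others, and 76.5% and 46.9% in replicate 2. Without the satellite peaks the medians of the shared peaks were 54.0% and 52.0%. The mean difference between shared and other peaks, over both lists, was 17.9 percentage points with all peaks and 5.11 without the satellite peaks.

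**Figure D1:**
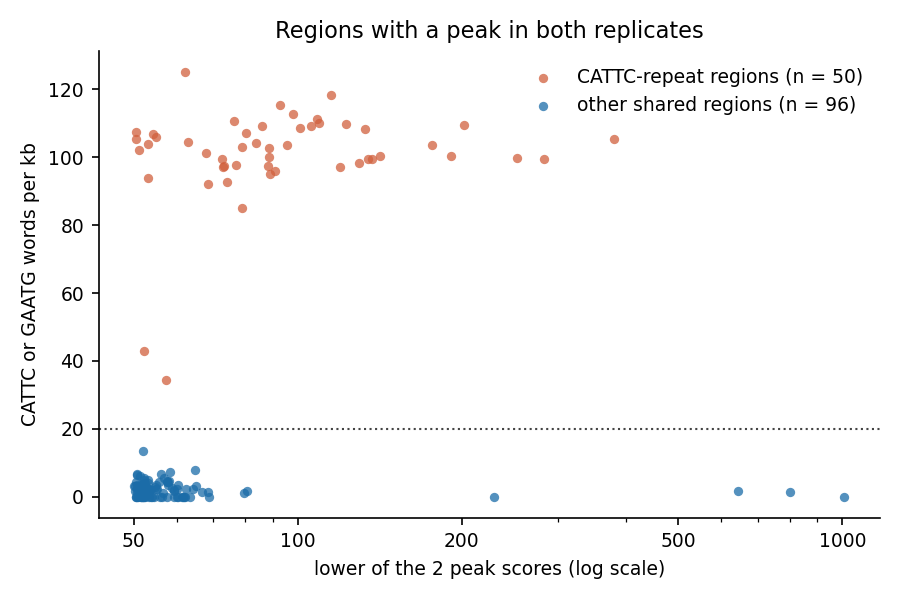
Each point is 1 of the 146 regions with a peak in both replicates, placed by the lower of its 2 peak scores (log scale) and by its CATTC or GAATG words per kb. The dotted line marks 20 words per kb: 50 regions lie between 34.3 and 125, and the other 96 at or under 13.4, most of them with a score near the floor of 50 and 4 far to the right.

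Outside the satellites, a handful of regions stood far above the rest. The median scores of the 96 regions were 58.0 and 59.1, close to the floor, and 4 regions were in the top 5% by score of both lists. LINC01767 was one. A region of 827 bp at chr17:63916517-63917343, which overlapped the 3′ end of GH1, the pituitary growth hormone gene (chr17:63917200-63918839, minus strand), and ran on downstream of it, scored 803 and 1164.51. VEGFA, the growth factor for blood vessels, held 1 region of 3505 bp at chr6:43778848-43782352 with 2 peaks of each list, whose best scores were 642.78 and 868.46. A region at chr15:67839878-67840663 with RNU6-1, a gene for the U6 RNA at the heart of the spliceosome, scored 229.19 and 1670.06. RNU6-1 is chr15:67839939-67840045 on the minus strand. The replicate 2 peak, chr15:67840011-67840443, overlapped its 5′ end and lay mostly upstream of it. LINC01767, GH1 and VEGFA overlapped a peak against LacZ in replicate 1, and RNU6-1 overlapped none in either LacZ list. Of these, only LINC01767 also overlapped one in replicate 2.

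Below those 4, scores lay nearer the floor. The TPRG1 intron scored 80.7 and 87.0, the region near TH 79.6 and 139, and an intron of PIAS1, a SUMO ligase gene, 68.9 and 66.6. An intron of PRKG1, the cGMP-dependent protein kinase, scored 69.0 and 64.8, and an intron of ESRRG, an orphan nuclear receptor, 65.5 and 64.3. RNU11, the small nuclear RNA of the minor spliceosome, lay in a region beside TAF12 that scored 138 and 56.6. The vault RNA gene VTRNA1-1 scored 63.3 and 69.4. Of 31 parent genes of RNA polymerase III and spliceosomal RNAs, 2 held a peak in both lists, RNU6-1 and RNU11 (VTRNA1-1 is not in that list of genes). These are the genes already named above, and the class was chosen with earlier results of these data known. The length-scaled count was 0.0198. That count is too small for the class to be described further.

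Exons of protein-coding genes were touched by 6 of the 146 regions. Besides GH1 (with the overlapping ENSG00000285947) and VEGFA these were CCDC39, a gene for a protein of motile cilia, with scores of 87.7 and 68.8, ANKIB1 with 52.1 and 80.3, PDK1, the pyruvate dehydrogenase kinase, with 52.0 and 54.3, and CACNA2D3, an auxiliary calcium channel subunit, with 51.3 and 79.9. Exons of other genes were touched by 6 regions, introns held 42, upstream windows 3, and 89 were intergenic, 50 of them the CATTC-repeat regions. The same breakdown was not made for all peaks, so these counts have no background. Of the 96 regions without satellite words 57 lay in a gene or its upstream window. By peak, 59.8% and 59.2% of these shared peaks touched a gene, close to the 64.0% and 64.6% of the peaks that were not shared.

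A gene was counted as holding a peak when the peak overlapped its body or the 5 kb before its start. By this rule 2385 of 62062 annotated genes, 3.84%, held a peak in both lists. Among 19970 protein-coding genes, 2630 (13.2%) held one in replicate 1, 4449 (22.3%) in replicate 2 and 1582 (7.92%) in both. Among 18756 lncRNA genes 763 (4.07%) held one in both. These percentages are the background for every class count below.

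How often this happened went with gene length. Under 10 kb, 1 of 2763 protein-coding genes held peaks in both lists, and between 10 and 50 kb 0.912% did. The share was 5.64% between 50 and 100 kb, 18.4% between 100 and 200 kb and 48.7% between 200 and 500 kb. Above 500 kb it was 83.7%, 277 of 331 genes. The lncRNA genes rose along nearly the same curve, with 1.08% between 10 and 50 kb, 24.0% between 100 and 200 kb and 85.5% above 500 kb. The median counted length, body and upstream window together, was 226 kb for protein-coding genes with peaks in both lists and 32.5 kb for all of them.

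**Figure D2:**
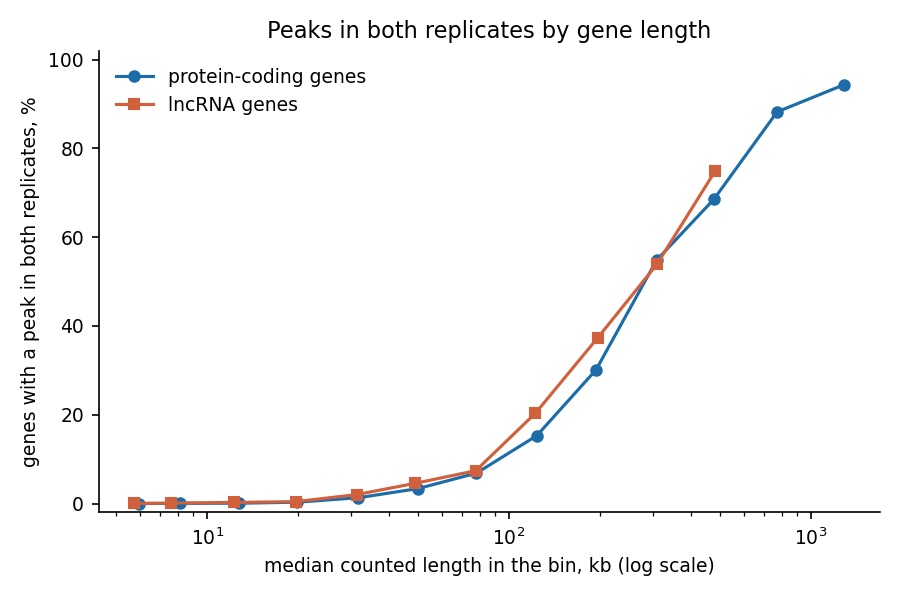
Share of genes with a peak in both replicates (percent) against the median counted length of the bin (kb, log scale), for protein-coding and lncRNA genes in bins with at least 50 genes. Both curves stay near 0 below 20 kb, and only that of the protein-coding genes, which reaches longer bins, passes 80%, with lncRNA genes slightly above protein-coding genes between 100 and 200 kb.

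Peaks in both lists seldom meant peaks at one place. Only 39 of the 1582 protein-coding genes, 2.47%, and 32 of the 763 lncRNA genes, 4.19%, contained a region where the replicates overlapped. Within a protein-coding gene the nearest pair of peaks, one from each list, lay a median of 22.2 kb apart (quartiles 7.79 and 51.1 kb), and in 75 of 1582 genes it lay under 1 kb apart. In 508 of the 1582 the gene held just 1 peak of each list. The peaks were also spread evenly along the gene. Over the 1271 protein-coding genes of at least 100 kb with peaks in both lists, each of 10 equal segments of the body from 5′ to 3′ end held between 9.02% and 11.2% of the 2728 peaks of replicate 1, and between 9.48% and 10.8% of the 3859 of replicate 2.

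The genes with most peaks in both lists were very long. CDH18, which codes for a cadherin, a calcium-dependent adhesion protein, led with 21 peaks in replicate 1 and 30 in replicate 2 over 1105 kb. CSMD3, a gene for a large CUB and sushi domain protein, held 18 and 24. PTPRD, a receptor tyrosine phosphatase gene, held 15 and 24, and CTNND2, the gene for delta-catenin, 15 and 21. DLG2, a postsynaptic scaffold, held 14 and 21, and CDH12, another cadherin, 10 and 30. LRP1B, of the LDL receptor family, held 10 and 13. NRG1, a ligand of ErbB receptors, RALYL, an RNA-binding protein gene, and PRKG1 held 10 and 12 each. All 10 were at least 739 kb long and had a GC content under 40%. Several also lie on arms with many peaks. CDH18, CTNND2 and CDH12 lie on the short arm of chromosome 5, with 2.97 and 3.66 times the mean peak density of the lists. CSMD3 and RALYL lie on the long arm of chromosome 8 (2.21 and 1.33 times) and PTPRD on the short arm of chromosome 9 (1.47 and 1.43). The arms of DLG2, LRP1B, NRG1 and PRKG1 stood between 0.81 and 1.10 times the mean. Only PTPRD, CDH12 and PRKG1 of these 10 held a place where the replicates overlapped, 1 each.

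Per length the order was different. Among protein-coding genes of at least 100 kb with at least 3 peaks in each list, DROSHA, the nuclease that starts microRNA processing, was densest, with 4 and 7 peaks over 137 kb, or 2.93 and 5.12 per 100 kb. LNPEP, an aminopeptidase gene, followed with 2.80 per 100 kb in both lists, then PLCXD3 with 2.40 and 2.88, RASGRP3, an activator of Ras proteins, with 2.25 and 3.75, and ELAVL2, a neuronal RNA-binding protein gene, with 2.12 and 2.83. RETREG1, a receptor for the turnover of endoplasmic reticulum, had 2.01 in each list, CDH18 1.89 and 2.70, the transcription factor gene RFX7 1.84 in each and the scaffold gene MPDZ 1.68 in each. Of these genes, DROSHA, LNPEP, PLCXD3, RETREG1 and CDH18 lie on chromosome 5. Several of these densities rest on 3 peaks a list.

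The lncRNA genes with most peaks were long too. LINC02055 on chromosome 8 held 19 peaks in replicate 1 and 24 in replicate 2 over 1233 kb, and ENSG00000254394, on the same chromosome, 18 and 14. ENSG00000285939 on chromosome 17 held 11 and 18. ENSG00000234352 and ENSG00000229618 on chromosome 7 held 7 and 7, and 12 and 6. ENSG00000284418 on chromosome 9 held 6 and 9.

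Long genes without any peak were most frequent on chromosome X. Of 1552 protein-coding genes counted over at least 200 kb, 191 held no peak in either list. On X it was 37 of 61. The 6 longest were IL1RAPL2, DIAPH2, FRMPD4 and PCDH11X on X, of 1202, 920, 902 and 844 kb, DLGAP2 on chromosome 8 with 971 kb and 47.9% GC, and KIF26B on chromosome 1 with 554 kb and 44.8% GC. PTPRK, a receptor phosphatase gene of 552 kb on chromosome 6 named after its values were seen, also held none, although its GC content was 35.4%.

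Short protein-coding genes rarely entered. With a body under 20 kb, GH1, the overlapping ENSG00000285947, VEGFA and TTC14 were the 4 whose body held a shared region. GH1, at 1.64 kb, held 1 peak in each list, VEGFA, at 16.3 kb, 2 in each, and TTC14, at 15.7 kb, 1 and 2.

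Gene classes were then set against their length. For each gene, the share of all genes of the same length (bins of 0.1 on the log10 scale) that held peaks was taken, and these shares were summed over the class. A ratio of 1 means as many genes with peaks as the lengths alone give. Of 37 classes, 21 had a length-scaled count of at least 5. In 3 of them the ratio was above 1 for both replicates together and for each list alone, in 7 it was below 1 on all these counts, and in 11 it was mixed. These ratios are descriptions, with no test.

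The broad types differed little. Protein-coding genes stood at 0.96 for both replicates, 0.94 in replicate 1 and 0.99 in replicate 2, and lncRNA genes at 1.11, 1.12 and 1.04. With genes grouped by length and GC content together, both came to 1.01, and with length multiplied by the peak density of the surrounding 5 Mb they came to 1.00 and 1.01. Pseudogenes held peaks in both lists in 34 cases against a length-scaled count of 40.7.

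Clustered protocadherins, a family of adhesion proteins, had the highest ratio of the 21 classes. Of 53 genes 21 held peaks in both lists, 2.74 times the length-scaled 7.67, while the single lists gave 1.78 and 1.16. All 21 belong to the gamma cluster (PCDHG), so the ratio does not describe the other members. The gamma genes share their last exons and overlap one another. The count came from 1 peak of replicate 1 at chr5:141481779-141482128, which touched 21 of the genes, and 2 peaks of replicate 2, at chr5:141437883-141438276 and chr5:141504074-141504531, which touched 19 and 22. With peaks at or above the median score of each list the ratio was 0. Leading members such as PCDHGA1, PCDHGA10 and PCDHGA11 accordingly held the same peaks, 1 and 2.

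Phosphodiesterase genes, which code for the enzymes that break down cAMP and cGMP, were the third class above 1, with 9 genes against 7.98, a ratio of 1.13, and 1.03 and 1.00 in the lists. PDE4D held 5 and 13 peaks, PDE4B 6 and 4 and PDE11A 4 and 4.

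The classes below 1 were led by collagens, the fibrous proteins of the matrix, with 6 genes against 10.6 and a ratio of 0.56, 0.69 and 0.81 in the lists. COL25A1 held 2 and 5 peaks, COL24A1 2 and 2, and COL11A1 1 and 2. Receptor tyrosine phosphatases stood at 0.68, 0.57 and 0.92, with PTPRD, PTPRM (6 and 2 peaks) and PTPRT (2 and 6) leading. Adherens and tight junction genes held 7 against 8.91, a ratio of 0.79, which was 0.18 with peaks at or above the median score, led by MAGI2 with 6 and 9 peaks, MAGI1 with 4 and 4 and PARD3B with 3 and 7. Synaptic adhesion genes, the longest functional group but one, held 28 of 48 against 31.1, a ratio of 0.90, led by CSMD3, CSMD1 (10 and 10) and NRXN3 (8 and 15). Their ratio was 1.47 with genes in 20 length bins of equal gene number, but the last of those bins did not hold length constant. It put all genes from 158 kb up together. Of all genes between 158 and 251 kb 32.1% held peaks in both lists, and of those from 1000 kb up 92.9%.

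The signalling pathways held 5 genes each with peaks in both lists. Wnt pathway genes stood at 5 of 67 against 6.58, a ratio of 0.76, and of 0.45 in replicate 1 and 0.78 in replicate 2, with RSPO3 (1 and 3 peaks), DKK2 and RSPO2 (1 and 2 each) in the lead. TGF-beta and BMP pathway genes stood at 5 against 5.20, a ratio of 0.96, which was 1.42 with peaks at or above the median score, with LTBP1 (4 and 3), BMPR1B (2 and 5) and TGFBR3 (1 and 2). MAP kinase pathway genes stood at 5 against 6.84, but at 1.13 in replicate 1 and 0.75 in replicate 2. KSR2 led them with 2 and 2, before MAPK10 (1 and 4) and SOS1 (1 and 2).

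The other described classes had ratios on both sides of 1 in the 3 counts. Common fragile site genes held peaks in 28 of 30 members against 27.1, a ratio of 1.03, led by PTPRD, CTNND2 and DLG2. Their ratio was 1.93 with the 20 length bins of equal gene number, which did not hold length constant for genes this long. Cadherin genes held 8 against 7.80, a ratio of 1.03, with CDH18, CDH12 and CDH13 (5 and 9). With length times regional peak density the cadherin ratio was 0.84. CDH18, CDH12, CDH9, CDH10 and CDH6 lie on the short arm of chromosome 5, which held 2.97 and 3.66 times the mean peak density of the lists. Solute carriers held 28 against 26.9, led by SLC27A6 and SLC9A9 (2 and 4 each) and SLC30A10 (2 and 3). Glutamate receptor genes held 12 against 12.1, among them GRIK2 (11 and 8) and GRM7 (5 and 7).

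Of the channels, potassium channel genes held 16 against 17.4, with KCNMA1 (3 and 5), KCNB2 (5 and 2) and KCNAB1 (2 and 3). Voltage-gated calcium and sodium channel genes held 11 against 9.90, with CACNB4 (2 and 4), CACNA1E (3 and 2) and CACNB2 (2 and 2). Zinc finger genes held 19 of 508 against 20.8, with ZNF385D (7 and 9), ZNF385B (4 and 5) and ZNF804B (3 and 4). GALNT genes, which start mucin-type O-glycosylation, held 5 against 5.53, with GALNTL6 (4 and 9), GALNT13 (5 and 3) and GALNT8 (1 and 2). DNA damage response genes held 10 against 8.91, with a ratio of 1.40 in replicate 1 and 0.95 in replicate 2. RAD51B led them with 6 and 8, before XRCC5 (2 and 2) and ATM (1 and 3).

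The classes with a length-scaled count under 5 had too few expected genes to be read. No histone, keratin, homeobox cluster or hnRNP gene held a peak in both lists, against length-scaled counts of 0.146, 0.185, 0.229 and 0.289. Of 400 olfactory receptor genes 1 did, against 1.64, and of 25 epithelial-mesenchymal transition genes 4 did, against 2.92.

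**Figure D3:**
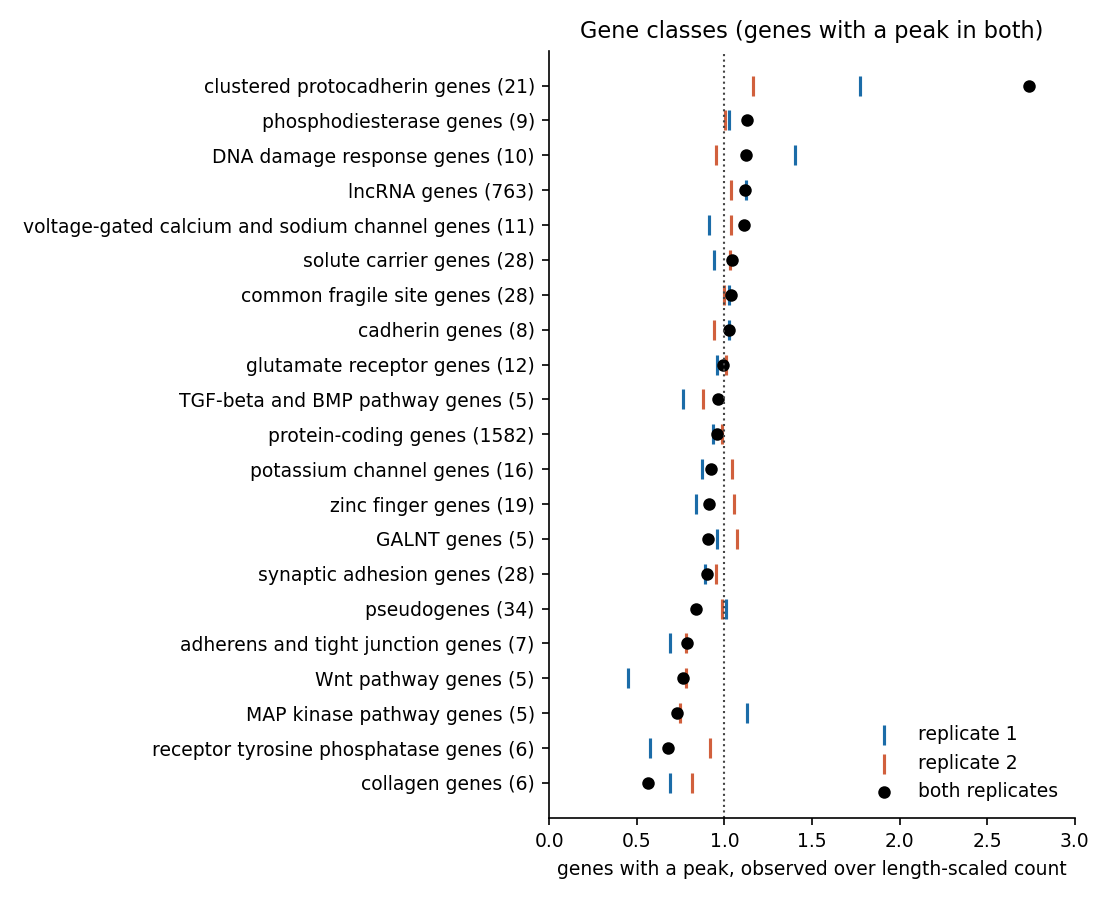
Genes with a peak over the length-scaled count (linear axis) for the 21 gene classes with a length-scaled count of at least 5; black points give both replicates together, blue and orange ticks replicates 1 and 2, and the number after each name is the genes with a peak in both. Most black points lie near 1, clustered protocadherins lie at 2.74 and collagens at 0.56.

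Peak density also went with GC content. In windows of 100 kb sorted by GC into 5 classes of equal number, replicate 1 had 4.65 peaks per Mb in the lowest class, with 35.4% GC, and 0.90 in the highest, with 48.9%. Replicate 2 had 8.14 and 3.92. The ratio of lowest to highest class was thus 5.17 in replicate 1 and 2.08 in replicate 2, a mean of 3.62, and both lists fell at each step from class to class. Protein-coding genes between 100 and 200 kb showed a similar order at nearly constant length: 27.5% of the class with the lowest GC (median 36.8%, median length 137 kb) held peaks in both lists, 29.2% of the next class, 18.8% and 13.5% of the following ones, and 3.05% of the class with the highest (49.2%, 131 kb). In replicate 1 the shares were 44.7% and 8.06%, and in replicate 2 58.6% and 37.3%.

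**Figure D4:**
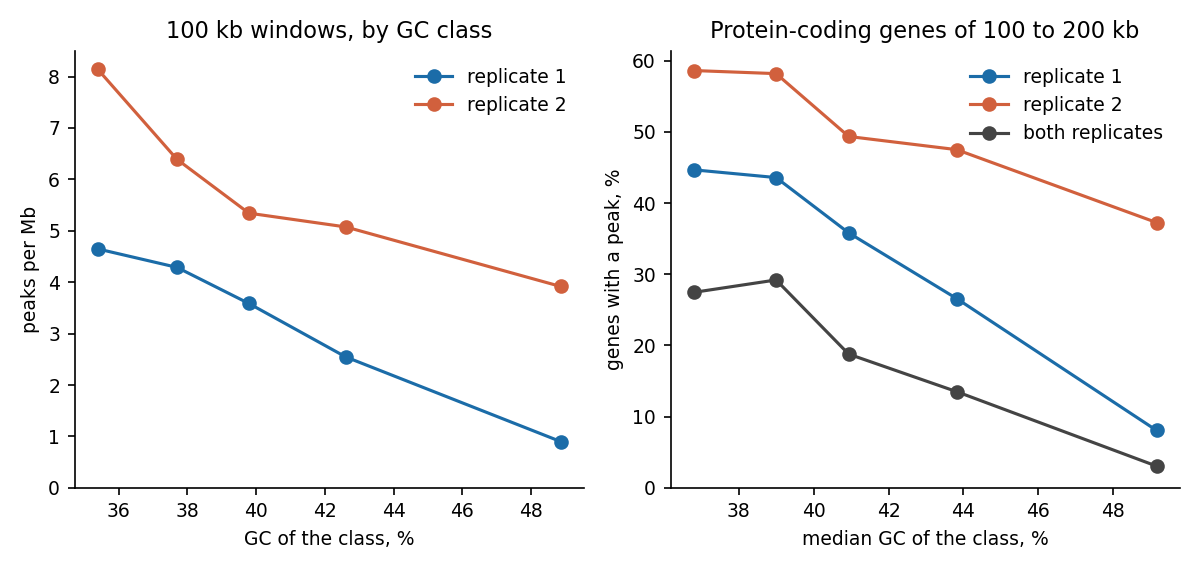
Left, peaks per Mb in 100 kb windows sorted into 5 classes by GC (percent), for both replicates; right, percent of protein-coding genes of 100 to 200 kb with a peak, by class of the gene's GC, for each replicate and for both. Replicate 1 falls from 4.65 to 0.90 peaks per Mb and replicate 2 from 8.14 to 3.92, and the genes with peaks in both stand at 27.5% and 29.2% in the lower classes and at 3.05% in the highest.

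Along the genome most megabases held both lists. Of 2885 windows of 1 Mb, 82.7% held a peak of each, with medians of 3 and 5 peaks. Counts in the lists went together (Pearson r = 0.52 and Spearman rho = 0.48 over the 2885 windows, and r = 0.49 without X). The windows share the cell line and differ in GC content, so this is a description. No peak of either list lay in 128 windows, 41 of them among the 152 on X, so that the emptiest windows could not be ranked.

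The densest windows were all on chromosome 5. Among them were 13000001 to 14000000 (17 and 23 peaks, with DNAH5, a dynein gene of motile cilia), 11000001 to 12000000 (17 and 19, with CTNND2), 39000001 to 40000000 (16 and 27, with RICTOR, FYB1, C9 and DAB2) and 31000001 to 32000000 (16 and 20, with CDH6, DROSHA, C5orf22 and PDZD2). Of 46 windows with at least 10 peaks in each list, 23 were on chromosome 5, 15 on chromosome 8, 3 each on chromosomes 10 and 17, and 1 each on chromosomes 1 and 2.

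By chromosome arm the lists had the same extremes. Relative to the list mean of 3.20 and 5.76 peaks per Mb, the short arm of chromosome 5 stood at 2.97 and 3.66, the long arm of chromosome 8 at 2.21 and 1.33, and the short arm of chromosome 9 at 1.47 and 1.43. At the other end both arms of X stood at 0.14 in replicate 1, and at 0.14 and 0.15 in replicate 2. The arms of chromosome 19 (0.27 and 0.31 in replicate 1) and of chromosome 22 (0.34) were low in replicate 1 and less so in replicate 2 (0.67, 0.72 and 0.54). DNA copy number was not measured here.

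**Figure D5:**
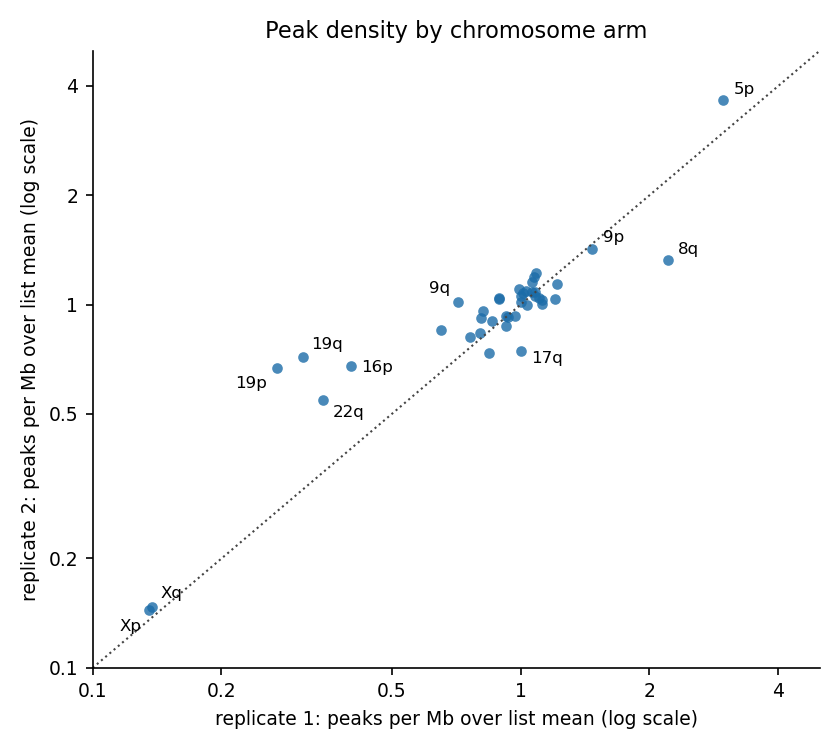
Peaks per Mb of each chromosome arm over the list mean, replicate 1 against replicate 2 (log axes), outside repeat arrays; the dotted line marks equal values. The short arm of chromosome 5 lies at 2.97 and 3.66, both arms of X lie near 0.14, and the short arm of chromosome 16 and the arms of chromosomes 19 and 22 lie above the line.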

How the data were processed

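DNA recovered from HCT116 chromatin with CRLM1 or LacZ probes, and Input DNA, was sequenced from both ends. According to the study's methods, the authors trimmed reads with cutadapt, aligned them to GRCh38 with Bowtie2 and called peaks with MACS2 for each replicate. The deposited lists give position and a score whose scale is not stated. The peak names and the 5 columns look like output of an earlier MACS version. The study's later removal of LacZ peaks was not applied. Positions were set against GENCODE release 44 and the letters of GRCh38 in Python 3.11.15 with pandas 2.3.3 and NumPy 2.4.6. Peaks overlapped at 1 bp or more. Length-scaled counts used bins of 0.1 (log10) holding at least 50 genes. The genome letters carry no repeat masking, so the planned masked share was replaced, after this was seen, by words of 14 bases found 200 times or more. Windows had at least 90% known bases. The centromere of an arm was taken as the middle of the longest run of 100 kb windows over 90% repeated or unknown. Overlap and length scaling were tested on simulated data. Members, gene classes and lists were chosen with earlier results of these data known. Shared regions are named by the highest lower score and exon overlap, and genes by most peaks, highest density, longest without a peak, those under 20 kb with a shared region and the 3 leading members of a class. Depth is unknown. A few items that the naming rules would select are not reported here.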

Additional observations from a re-analysis of the deposited data

Results flagged for a closer look

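Peaks were also called outside chromosomes 1 to 22 and X, in sequence that the comparisons above do not use. Replicate 1 had 99 such peaks and replicate 2 had 57. Both lists had peaks on GL000216.2 (25 and 8, best scores 575.81 and 195.45) and on KI270729.1 (11 and 6, best scores 1535.01 and 240.7).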

How the results depend on the processing

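With peaks at or above the median score, 74 regions were shared, 733 protein-coding and 334 lncRNA genes held peaks in both lists, the repeated share of shared peaks exceeded that of the others by 22.3 percentage points, and 63.8% of 1 Mb windows held both lists. With a reciprocal overlap of 50%, 103 regions were shared and the excess was 23.7 points. The added settings, chosen after seeing the data, left out peaks in repeat arrays (excess 15.3) or peaks with satellite words (96 shared regions, excess 5.11). With length bins crossed with 5 GC classes, protein-coding genes stood at 1.01 and lncRNA genes at 1.01 of the length-scaled count, and with length times regional peak density, also added, at 1.00 and 1.01. The classes above 1 on every count numbered 3, but 6 with 20 bins of equal gene number, 7 with the GC classes, and 2 with length times regional peak density or with length bins within a gene type. The 20 bins of equal gene number did not hold length constant among the longest genes. Windows of 500 kb gave 64.1% and of 2 Mb 92.0%. From single lists, without one replicate or the other, the excess ranged from 17.5 to 18.4 points, protein-coding genes from 0.94 to 0.99, lncRNA genes from 1.04 to 1.12 and the GC ratio from 2.08 to 5.17. The classes above 1 numbered 8 and 9 in single lists. There only the ratio of that list had to exceed 1, a looser rule than the one that gave 3. Of 19 narrower classes, 5 kept their side of 1 under all 12 settings: collagen, Wnt pathway, junction, receptor tyrosine phosphatase and phosphodiesterase genes. Their values nearest to 1 were 0.83, 0.84, 0.97, 0.92 and 1.00 (1.003) in that order. The settings draw on the same lists and few genes, so keeping a side carries little weight. No paired analysis was possible because each list already sets a pull-down against its own Input and no test was run. Scores near the floor, an unknown depth and 2 lists per comparison limit all of these values.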
